A study of Mus musculus with 6 samples.

Results

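The genes described here encode tumour necrosis factor, the interleukin 1 family and related cytokines. They are the 8 genes Tnf, Il1b, Il1a, Il1rn, Il6, Il10, Osm and Tgfb1, taken by symbol from the 23337 genes of the deposited count table. All 8 were found, and 6 passed the filter on low counts. They were chosen by family, with their scaled counts in all 6 libraries already known, and the values of the same libraries are used here, so their levels and fold changes are a description and carry no test. RNA was sequenced from mouse leukemia labelled primary neonatal, with a rearranged MLL gene per the title of the series. Of the 6 libraries, 3 were treated with ccl5, the chemokine CCL5, and 3 were kept under control conditions, and no dose or time of treatment is given in the sources used here. The ccl5 replicate 1 library is labelled a tertiary transplant. The ccl5 replicates 2 and 3 and control replicate 3 are labelled primary transplants, and the labels give no transplant for control replicates 1 and 2. The titles and source names carry the stem neo30 for ccl5 replicate 1 and neo10 for the 3 primary transplant libraries, with neither in control replicates 1 and 2, and the labels do not explain these stems. They name no mouse strain, no age and no separate animals or cultures, so p-values measure only the spread between these libraries, which may be technical.

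Tumour necrosis factor and interleukin 1 are early signals of inflammation that myeloid cells release on stimulation, and both act through receptors that activate the transcription factor NF-kB. Interleukin 1 has a pair of agonists, IL-1α and IL-1β, and a natural antagonist that occupies the same receptor without signalling. Interleukin 6 and oncostatin M signal through the shared chain gp130 to STAT3, and interleukin 10 also uses STAT3 and restrains cytokine production by macrophages. TGF-β1 is made as a latent complex by most blood cells and signals through SMAD proteins once released.

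The libraries held between 13421100 and 18445095 counts. Every library had 1 close match among the others, and the matches formed 3 pairs, namely ccl5 replicates 1 and 3, ccl5 replicate 2 with control replicate 3, and control replicates 1 and 2. Over the 12174 tested genes the log2 ratio between the libraries of a pair had an SD of 0.229 to 0.313, against 1.11 to 1.46 for the 12 other pairings. The counts of a matched pair still differed by more than sampling noise, with a chi-square per degree of freedom of 3.63 to 7.34, so no library was taken for a second deposit of another. That comparison is with counting noise alone and does not show that the libraries came from separate cultures. The ccl5 replicates 1 and 3 had 0 reads on the Y-linked genes Ddx3y, Eif2s3y, Kdm5d and Uty, whereas each of the other libraries had at least 803 on every 1 of them. The labels put ccl5 replicate 3 with ccl5 replicate 2 and control replicate 3 under neo10, whereas its expression and its lack of Y-linked reads put it with ccl5 replicate 1, labelled neo30. An effect of ccl5 and the other differences between these pairs cannot be told apart, and each result below is given library by library. In all 6 libraries the pan-leukocyte gene Ptprc measured 522 to 783 CPM (counts scaled to TMM library size), and the T cell genes Cd3e, Cd3g, Cd4 and Trat1 and the B cell genes Ms4a1, Pax5 and Ebf1 had at most 3 counts. Cd3d had at most 8 counts, Cd8a at most 4 and Cd79a at most 17, whereas Cd79b, a chain of the B cell receptor, had 139 to 299 counts. The 6 B cell markers summed to 11.4 to 15.6 CPM in the ccl5 libraries, against 11.4 to 16.8 CPM in the control libraries, most of it Cd79b.

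The start-site sequences below are shown because Tnf and Il1rn shared their high libraries, while Il1a and Il1b lie side by side on the minus strand of chromosome 2 and had different ones. RefSeq promoter windows (build GRCm38.p6) were matched for 6 of the 8 genes, and Il1rn had windows for 3 alternative starts, of which the most upstream is shown. Each sequence is the 250 bases before the start site on the gene's own strand. Capitals mark matches on either strand to an NF-kB motif (GGG, any 5 bases, then CC), an AP-1 motif (TGANTCA) and a TATA box (TATAAA).
Tnf, chr17:35202008-35202257, minus strand: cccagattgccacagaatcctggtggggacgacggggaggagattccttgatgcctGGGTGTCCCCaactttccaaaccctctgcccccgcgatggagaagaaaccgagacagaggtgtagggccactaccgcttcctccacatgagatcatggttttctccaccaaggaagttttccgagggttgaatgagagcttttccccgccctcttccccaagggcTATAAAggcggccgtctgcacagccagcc
Il1rn, chr2:24336610-24336859, plus strand: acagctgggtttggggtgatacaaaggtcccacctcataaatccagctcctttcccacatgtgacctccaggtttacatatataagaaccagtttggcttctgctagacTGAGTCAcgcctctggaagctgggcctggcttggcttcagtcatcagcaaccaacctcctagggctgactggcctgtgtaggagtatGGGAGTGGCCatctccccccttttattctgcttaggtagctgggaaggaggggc
Il1a, chr2:129309973-129310222, minus strand: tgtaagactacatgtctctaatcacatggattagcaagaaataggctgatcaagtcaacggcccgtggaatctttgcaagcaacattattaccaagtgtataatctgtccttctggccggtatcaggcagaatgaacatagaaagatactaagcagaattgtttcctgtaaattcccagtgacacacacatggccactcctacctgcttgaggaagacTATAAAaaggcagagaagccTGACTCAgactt
Il1b, chr2:129371140-129371389, minus strand: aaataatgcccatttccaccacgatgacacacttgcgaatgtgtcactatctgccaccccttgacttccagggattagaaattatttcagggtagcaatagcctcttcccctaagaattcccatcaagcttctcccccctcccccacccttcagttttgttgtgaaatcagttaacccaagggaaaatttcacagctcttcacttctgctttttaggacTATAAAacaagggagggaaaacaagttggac
The NF-kB motif occurred in the printed windows of Tnf and Il1rn and in neither of those of Il1a and Il1b, and it occurs in 45.8% of the 32851 windows of the table. The AP-1 motif occurred in the printed windows of Il1rn and Il1a (6.75% of all windows), and the TATA box in those of Tnf, Il1a and Il1b at -29, -32 and -31 from the start (12.4% of all windows). Of the windows not printed, that of Tgfb1 held 7 NF-kB matches, some of them overlapping, and that of Il6 held 3, and the other Il1rn starts held 0 and 1. That of Il6 also held 1 AP-1 match, while those of Tgfb1 and of the other Il1rn starts held 0. A motif match is a description of these letters and says nothing of binding.

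Tnf encodes tumour necrosis factor (chromosome 17, 35199391 to 35201996, mm10, minus strand, 4 exon blocks in the file). It measured 2.85, 3.79 and 2.82 CPM in ccl5 replicates 1 to 3, against 61.8, 75.8 and 4.07 CPM in control replicates 1 to 3. Control replicates 1 and 2 stood far above all other libraries, and control replicate 3 lay next to the ccl5 libraries, so the groups did not overlap but nearly touched. The group means were 3.15 ± 0.549 CPM with ccl5, against 47.2 ± 38.0 CPM in controls (SD, n = 3 each), a log2 fold change of -3.90 (SE 1.03). Between the closest libraries of the groups, ccl5 replicate 2 had 62 counts and control replicate 3 had 74, a scaled ratio of 0.93 with an exact 95% interval of 0.653 to 1.32 that covers counting error only.

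In edgeR's quasi-likelihood fit across all genes, 0 of the 6 cytokine genes and 0 of 12174 tested genes (0%) passed an adjusted p of 0.05. Without adjustment, 1095 genes had p under 0.05 and a higher value with ccl5 (8.99%), and 568 a lower one (4.67%). DESeq2 called 118 genes higher (0.97%) and 81 lower (0.666%), with Tnf among the lower ones. Without control replicate 3 edgeR called 68 genes higher (0.541%) and 169 lower (1.34%), with Tnf and Osm among the lower ones. Without ccl5 replicate 2 it called 1802 genes higher (14.3%), Il1a and Tgfb1 among them, and 1497 lower (11.9%). Both left out 1 library of the pair that crossed the groups, and nothing is read from the calls of single cytokine genes.

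**Figure D1:**
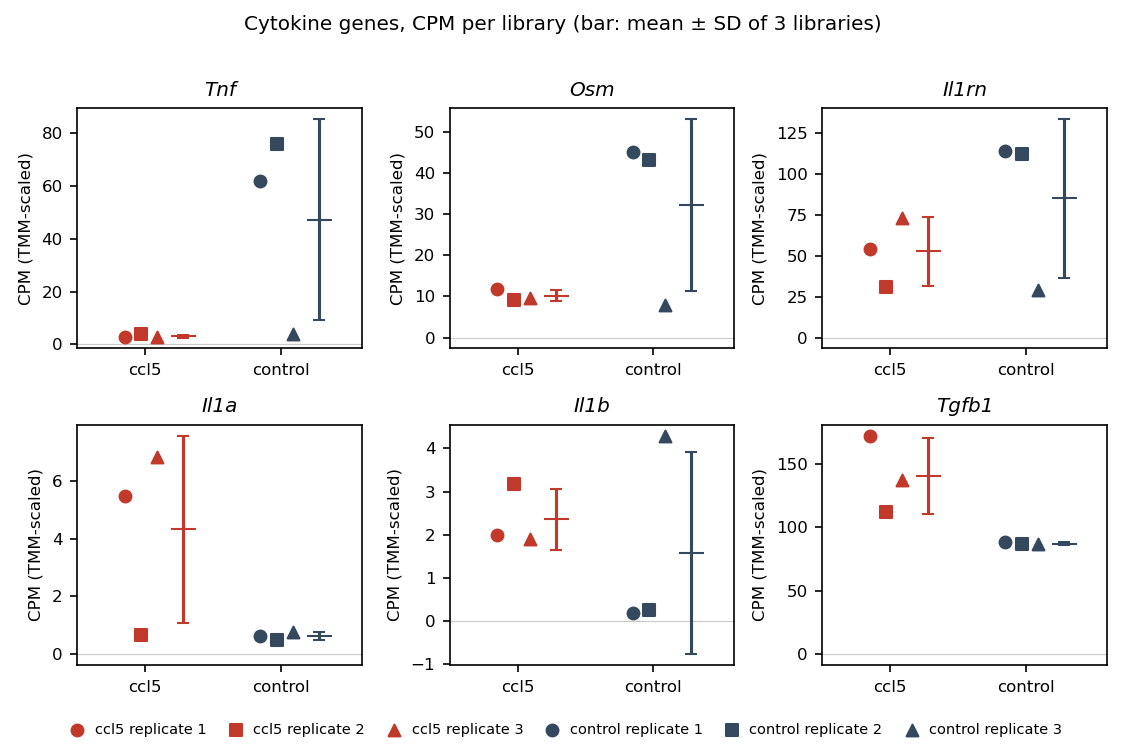
CPM of the 6 cytokine genes that passed the filter, 1 panel per gene, with ccl5 libraries on the left in red and control libraries on the right in dark blue. Circles, squares and triangles are replicates 1, 2 and 3, and the bar beside them is the mean ± SD of 3 libraries. Tnf, Osm and Il1rn were highest in control replicates 1 and 2, Il1a in ccl5 replicates 1 and 3, and Il1b in control replicate 3 and ccl5 replicate 2.

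The 2 genes that flank Tnf encode lymphotoxins of the same family. Lta, 1169 bases away, had 1, 0 and 1 counts in ccl5 replicates 1 to 3, against 7, 18 and 2 counts in control replicates 1 to 3, below the filter. Ltb, 3086 bases away on the other side, measured 0.997, 2.26 and 0.728 CPM in the ccl5 libraries, against 1.33, 0.906 and 2.04 CPM in the control libraries (fold change -0.09 in log2, SE 0.56, edgeR adjusted p = 0.955). Ltb was thus highest in ccl5 replicate 2 and control replicate 3, where Tnf was low.

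Osm encodes oncostatin M (chromosome 11, 4236785 to 4241026, plus strand). It measured 11.8, 9.16 and 9.65 CPM in ccl5 replicates 1 to 3, against 45.1, 43.3 and 7.98 CPM in control replicates 1 to 3. Control replicates 1 and 2 were again the high libraries, and here the groups overlapped because control replicate 3 was the lowest of all 6. The log2 fold change was -1.65 (SE 0.64). Lif, the gp130 cytokine whose gene lies 16542 bases from Osm, had the same high libraries, at 1.85, 0.489 and 2.0 CPM with ccl5, against 10.7, 9.65 and 0.385 CPM in controls (fold change -2.26 in log2, SE 1.17, edgeR adjusted p = 0.419). The gene on the other side of Osm, Gatsl3, measured 17.7, 5.80 and 16.7 CPM with ccl5, against 19.8, 19.3 and 6.55 CPM in controls, without that gap.

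Il1rn encodes the interleukin 1 receptor antagonist (chromosome 2, 24336860 to 24351491, plus strand). It measured 54.0, 31.2 and 73.4 CPM in ccl5 replicates 1 to 3, against 114, 112 and 29.2 CPM in control replicates 1 to 3. Each matched pair of libraries had its own level, highest in control replicates 1 and 2, intermediate in ccl5 replicates 1 and 3, and lowest in ccl5 replicate 2 and control replicate 3. The group means were 52.9 ± 21.1 CPM with ccl5, against 85.0 ± 48.3 CPM in controls (SD, n = 3 each), with a log2 fold change of -0.69 (SE 0.58).

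Il1a encodes IL-1α, which is active as its precursor and is also held in the cell (chromosome 2, 129299610 to 129309972, minus strand). It measured 5.48, 0.672 and 6.83 CPM in ccl5 replicates 1 to 3, against 0.634, 0.480 and 0.770 CPM in control replicates 1 to 3. The high libraries were ccl5 replicates 1 and 3, with 77 and 75 counts, while the other 4 libraries had 9 to 14 counts and could not be told apart at this depth. The log2 fold change was 2.76 (SE 0.85). The gene Gm14023 on the opposite strand shares exon bases with Il1a, and the library kit does not mark strand, so reads of the shared bases cannot be assigned. Gm14023 had 4 to 18 counts in the ccl5 libraries, against 7 to 20 in the control libraries.

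Il1b encodes IL-1β, which caspase 1 cleaves to its active form (chromosome 2, 129364580 to 129371120, minus strand). The gene was read 28, 52 and 21 times in ccl5 replicates 1 to 3, against 3, 5 and 78 times in control replicates 1 to 3, which are 1.99, 3.18 and 1.91 CPM with ccl5, against 0.190, 0.267 and 4.29 CPM in controls. Control replicates 1 and 2, the high libraries of Tnf, were the low ones of Il1b. The groups overlapped, the log2 fold change was 0.57 (SE 1.16), and without control replicate 3 it was 3.33 (SE 0.48). Il1a and Il1b lie 54608 bases apart with 0 genes of the file between them. Ckap2l, 2398 bases from Il1a on the other side, measured 5.91, 75.3 and 3.91 CPM with ccl5, against 33.0, 32.6 and 72.0 CPM in controls, so its low libraries were the high ones of Il1a.

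Because IL-1α and IL-1β share 1 receptor, their levels were also added per transcript length (TPM, scaled per transcript length and library). Il1a and Il1b summed to 6.42, 5.79 and 6.91 TPM in ccl5 replicates 1 to 3, against 0.772, 0.739 and 7.43 TPM in control replicates 1 to 3. TPM does not carry the TMM factors, which were 0.846 and 0.819 in ccl5 replicates 1 and 3. They were 1.19 and 1.17 in ccl5 replicate 2 and control replicate 3. How alike the sum was in these 4 libraries thus depends on the scaling. The make-up of the sum within each library does not, and it differed between the pairs. Il1a made up 64.9%, 12.4% and 70.6% of it in the ccl5 libraries, against 69.1%, 54.8% and 10.8% in the control libraries. The antagonist gene Il1rn was 4.69, 4.24 and 5.57 times the sum with ccl5 and 91.1, 93.6 and 3.0 times the sum in controls. In control replicates 1 and 2 the agonist counts behind this ratio were low, between 3 and 10 for each gene.

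Tgfb1 encodes TGF-β1 (chromosome 7, 25687002 to 25704996, plus strand). It measured 172, 112 and 137 CPM in ccl5 replicates 1 to 3, against 88.1, 86.7 and 86.4 CPM in control replicates 1 to 3. All ccl5 libraries lay above all control libraries, which agreed within 0.893 CPM (SD), and the means were 140.1 ± 30 CPM with ccl5, against 87.1 ± 0.893 CPM in controls (SD, n = 3 each). The log2 fold change was 0.69 (SE 0.19). In the pair that crossed the groups, ccl5 replicate 2 was 1.29 times control replicate 3 (exact 95% interval 1.21 to 1.39, counting error only). Beside it, ccl5 replicate 1 was 1.25 times ccl5 replicate 3, its own match, so a difference of this size also occurred within the ccl5 group. Among all tested genes, 8.27% had every ccl5 library above every control library, as Tgfb1 did, and 7.49% had every one below, as Tnf did. The gene 444 bases from Tgfb1, B9d2, measured 11.1, 29.0 and 10.6 CPM with ccl5, against 10.9, 11.6 and 26.2 CPM in controls.

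Il6 and Il10 did not pass the filter. Il6, the gene of interleukin 6 (chromosome 5, 30013161 to 30019968), had 0 counts in all 6 libraries, which allows at most 0.183 to 0.273 CPM in the ccl5 libraries and 0.160 to 0.190 CPM in the control libraries (3 counts each). Il10, the gene of interleukin 10 (chromosome 1, 131019845 to 131024970), had 1, 1 and 2 counts in ccl5 replicates 1 to 3, against 0, 1 and 1 counts in control replicates 1 to 3, all below that floor. Mapkapk2, 28734 bases from Il10 and the gene of a kinase that stabilises cytokine mRNA, had 296, 262 and 283 CPM with ccl5, against 206, 198 and 248 CPM in controls (fold change 0.37 in log2, SE 0.16, edgeR adjusted p = 0.374).

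Set in order by TPM within each library, Tgfb1 came first in all ccl5 libraries, at 123, 113 and 92.3 TPM, and in control replicate 3, at 84.6 TPM. In these 4 libraries Il1rn came second, at 30.1, 24.6 and 38.5 TPM with ccl5 and 22.3 TPM in control replicate 3, followed by Osm, at 9.30, 10.2 and 7.14 TPM with ccl5 and 8.58 TPM in control replicate 3. Tnf stood at 2.64, 4.96 and 2.46 TPM with ccl5 and 5.16 TPM in control replicate 3. In control replicate 1, by contrast, Tgfb1, Il1rn and Tnf measured 69.9, 70.3 and 63.5 TPM, and in control replicate 2 they measured 68.9, 69.2 and 78.0 TPM, so these 3 genes stood at about 1 level. Osm followed there at 39.3 and 37.8 TPM.

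**Figure D2:**
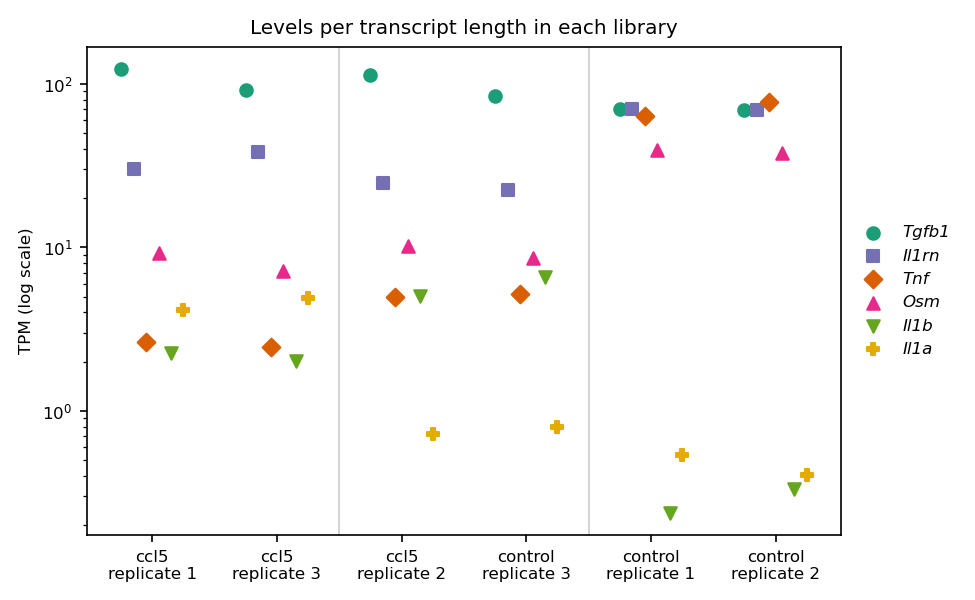
TPM of the 6 cytokine genes in each library on a log axis, with libraries placed beside their closest match and vertical lines between the 3 pairs. The 2 libraries in the middle, ccl5 replicate 2 and control replicate 3, had the same order of genes, with Il1b and Tnf close together. Control replicates 1 and 2 had Tgfb1, Il1rn and Tnf close together at the top.

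In the 3 libraries labelled primary transplants, ccl5 replicates 2 and 3 against control replicate 3, the log2 fold change was -0.31 (SE 1.05) for Tnf, 0.22 (SE 0.82) for Osm and 0.82 (SE 0.79) for Il1rn. It was 0.51 (SE 0.59) for Tgfb1, 2.24 (SE 1.89) for Il1a and -0.76 (SE 1.09) for Il1b. The sizes of the Tnf and Osm differences and the direction of those of Osm, Il1rn and Il1b were thus not kept there. In the 4 libraries with Y-linked reads, ccl5 replicate 2 against the 3 controls, the log2 fold change of Il1a was 0.094 (SE 0.69) and that of Tgfb1 was 0.36 (SE 0.15). There the fold change was -3.64 (SE 2.03) for Tnf, -1.81 (SE 1.2) for Osm, -1.45 (SE 0.95) for Il1rn and 0.995 (SE 1.92) for Il1b. The lower values of Tnf, Osm and Il1rn in this subset stood against control replicates 1 and 2 only. Against control replicate 3, its closest match, ccl5 replicate 2 had a scaled ratio of 0.93 for Tnf (exact 95% interval 0.653 to 1.32). The ratio was 1.15 (0.908 to 1.45) for Osm and 1.07 (0.944 to 1.21) for Il1rn, counting error only. Both subsets leave 1 group with a single library, whose spread is assumed to be that of the other group.

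**Figure D3:**
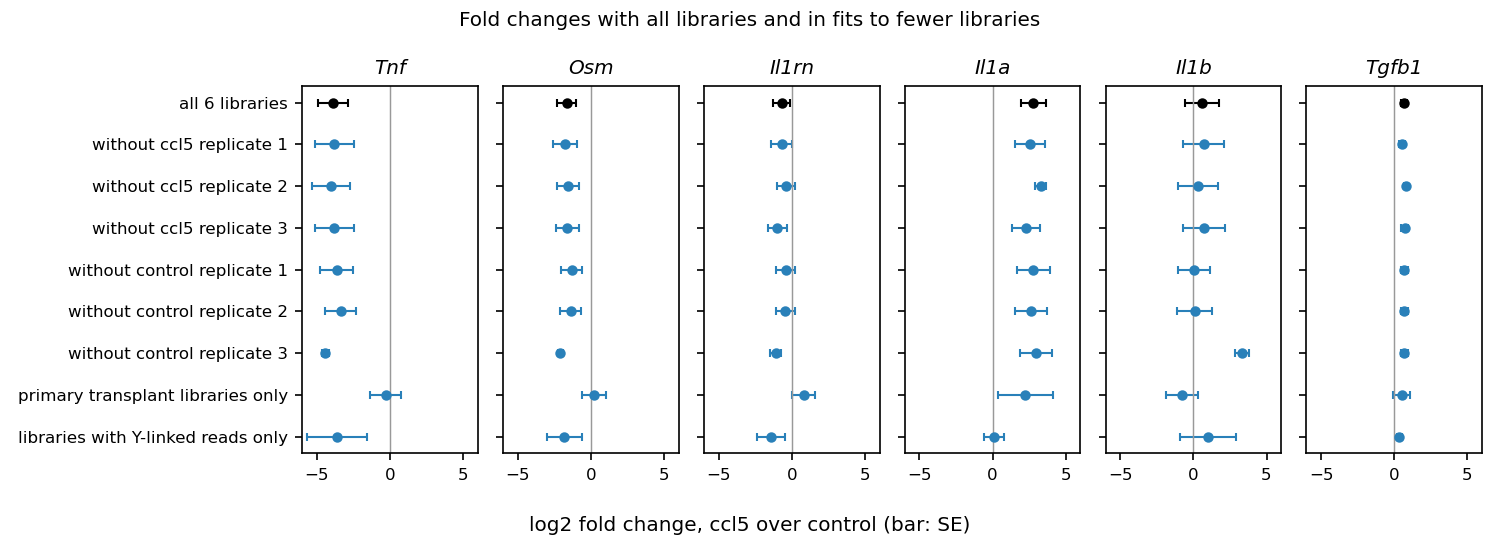
Log2 fold change of each cytokine gene, ccl5 over control, with its SE, for all 6 libraries (black) and for fits to fewer libraries (blue). Tnf and Osm lay below 0 in all fits that left out 1 library and close to 0 in the primary transplant libraries. Il1a lay at 0.094 in the libraries with Y-linked reads and between 2.24 and 3.28 in the other fits, with an SE of 1.89 in the primary transplant libraries. Il1b moved to 3.33 without control replicate 3.

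Markers of myeloid maturation also differed between the matched pairs, with several layouts. Of 7 monocyte and macrophage markers 5 were higher and 2 lower with ccl5, and the list summed to 17686, 4677 and 20564 CPM in ccl5 replicates 1 to 3, against 13344, 13127 and 5085 CPM in control replicates 1 to 3. Most of that sum was Lyz2, the lysozyme gene, at 14736, 3024 and 17581 CPM with ccl5, against 10986, 10686 and 3344 CPM in controls. Emr1, Cd68, Fcgr1, Lyz2 and Mrc1 were the higher ones. Of the lower ones, Ly6c2 measured 121, 1213 and 107 CPM with ccl5, against 1500.4, 1521 and 1278 CPM in controls. Cd14, the co-receptor for endotoxin, measured 31.3, 17.6 and 29.9 CPM with ccl5, against 195, 188 and 18.4 CPM in controls, and so had the high libraries of Tnf. Ly6c2 was also highest in control replicates 1 and 2, but control replicate 3 and ccl5 replicate 2 lay close below. A separate list of 7 myeloid markers had 5 higher and 2 lower and summed to 2272, 6247 and 2153 CPM with ccl5, against 1995, 1961 and 6005 CPM in controls. Of these, Csf1r, the M-CSF receptor, measured 406, 82.0 and 370.0 CPM with ccl5, against 111, 107 and 77.6 CPM in controls, and so had the high libraries of Il1a. Csf3r, the G-CSF receptor, measured 233, 193 and 233 CPM with ccl5, against 68.3, 63.2 and 200.3 CPM in controls, and Itgam, an integrin chain, 615, 473 and 509 CPM with ccl5, against 773, 753 and 431 CPM in controls. Elane of the same list, a granule protease gene, measured 24.8, 4548 and 12.8 CPM with ccl5, against 219.7, 226 and 4359.7 CPM in controls. The part of these cell states in the cytokine levels was not tested, and in bulk RNA fewer cells of a type and less RNA per cell cannot be told apart. Platelets are a known store of TGF-β1, and 5 platelet and megakaryocyte markers summed to 33.2, 8.92 and 31.5 CPM with ccl5, against 3.93, 4.85 and 12.9 CPM in controls. The 3 tested markers, Pf4, Ppbp and Itga2b, had positive log2 fold changes, but their groups overlapped. Ppbp measured 2.56, 2.87 and 3.37 CPM with ccl5, against 0.127, 0 and 3.36 CPM in controls. Itga2b measured 6.05, 0.733 and 5.01 CPM with ccl5, against 3.49, 3.89 and 1.82 CPM in controls, and so was lowest in ccl5 replicate 2. Most of the ccl5 sums was Pf4, at 24.4, 5.25 and 23.0 CPM, against 0.317, 0.480 and 7.54 CPM in controls. Gp9 had no more than 3 counts in any library. Gp1bb went the other way near the floor, with 0, 1 and 0 counts with ccl5, against 0, 6 and 1 in controls. The part of platelets in the Tgfb1 difference was not tested. The 6 T cell markers summed to at most 0.366 CPM with ccl5, against 0.550 CPM in controls.

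Receptor genes were measured as 17 genes, of which 15 were tested and 0 called. Of these, 10 were higher and 5 lower with ccl5 (median 0.74), while of all tested genes 5964 were higher and 6210 lower (median -0.01). With Y-linked libraries only, 6 receptor genes were higher and 9 lower (median -0.01), and with primary transplants only, 10 of 14 were higher and 4 lower (median 0.505). Tnfrsf1b, the TNF receptor of immune cells, measured 338, 134 and 317 CPM in ccl5 replicates 1 to 3, against 48.5, 47.2 and 113 CPM in control replicates 1 to 3 (fold change 1.92 in log2, SE 0.52, edgeR adjusted p = 0.365). Its low libraries, control replicates 1 and 2, were the high ones of Tnf. Tnfrsf1a, the widely expressed TNF receptor, varied less, at 138, 133 and 125 CPM with ccl5, against 94.9, 91.4 and 121 CPM in controls (0.37, SE 0.17, adjusted p = 0.379).

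Of the IL-1 receptor genes, Il1r1, the signalling receptor, was near the floor, with 9, 6 and 2 counts in the ccl5 libraries, against 12, 26 and 11 counts in the control libraries. Il1rap, its accessory chain, measured 11.3, 31.8 and 11.7 CPM with ccl5, against 62.3, 61.8 and 29.0 CPM in controls (fold change -1.48 in log2, SE 0.53, edgeR adjusted p = 0.365). Il1r2, a decoy receptor without signalling, measured 2.07, 14.5 and 3.09 CPM with ccl5, against 1.97, 1.6 and 16 CPM in controls. Il1r2 was thus high in ccl5 replicate 2 and control replicate 3, the libraries with the most Il1b.

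Receptor genes for the other cytokines, Osmr aside, were highest in ccl5 replicates 1 and 3. Il6st, which encodes gp130, measured 225, 42.5 and 217 CPM with ccl5, against 45.5, 47.2 and 48.5 CPM in controls (fold change 1.78 in log2, SE 0.61, edgeR adjusted p = 0.365). The chains of the interleukin 10 receptor had the same layout, with Il10ra at 77.1, 14.7 and 81.1 CPM with ccl5, against 13.8 to 18.3 CPM in controls, and Il10rb at 335, 88.4 and 352 CPM with ccl5, against 71.5 to 94.3 CPM in controls. So did Tgfbr2, the TGF-β binding receptor, at 148, 30.9 and 135 CPM with ccl5, against 30.5 to 35.4 CPM in controls, and its partner Tgfbr1, at 75.4, 39.2 and 82.5 CPM with ccl5, against 36.7 to 43.5 CPM in controls. Il6ra measured 30.8, 16 and 28.1 CPM with ccl5, against 13.4 to 16.3 CPM in controls. Osmr, the specific chain of the oncostatin M receptor, had 0, 1 and 0 counts with ccl5, against 1, 6 and 2 counts in controls.

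**Figure D4:**
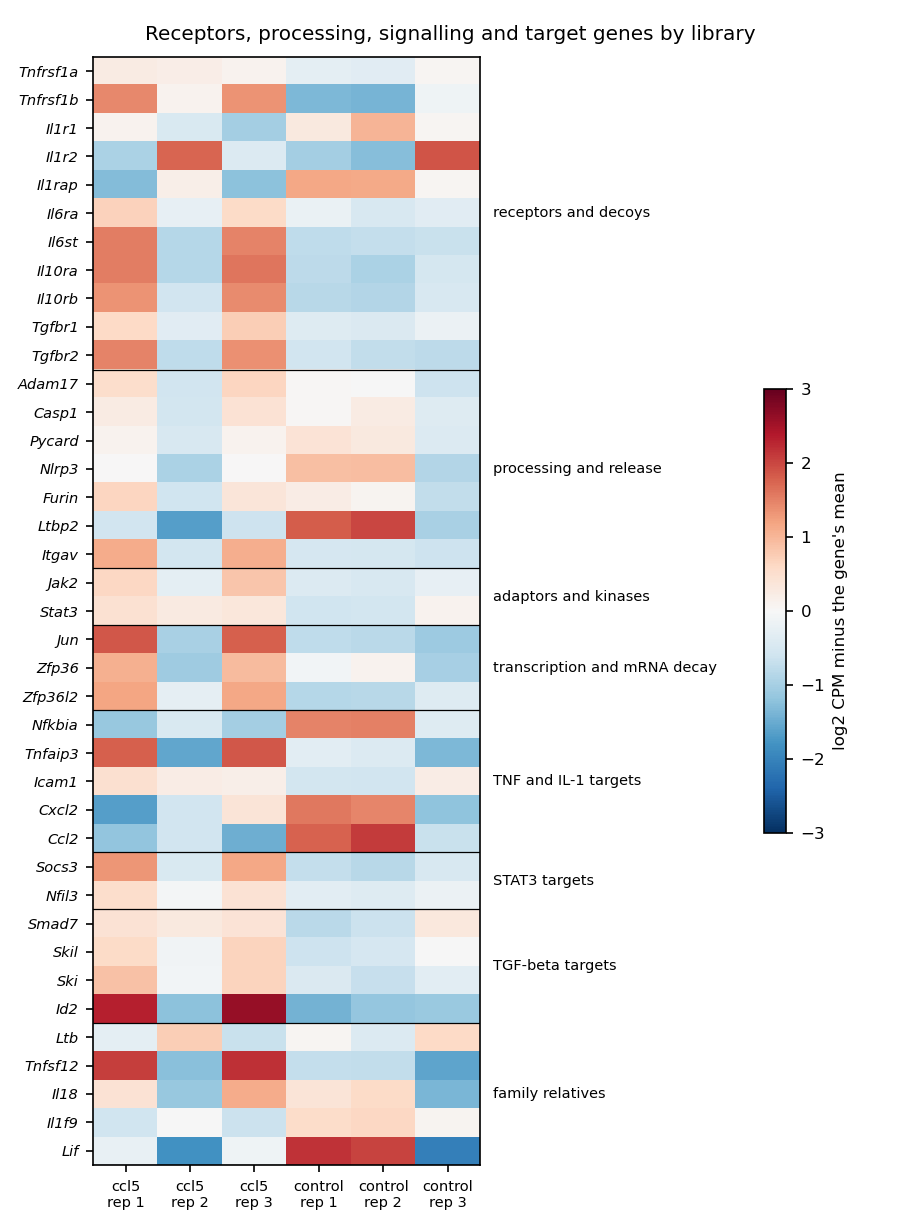
Tested receptor, processing, signalling, target and family genes named in the text, in rows, across the ccl5 libraries (left 3 columns) and control libraries (right 3 columns). Colour is log2 of CPM plus 0.2, minus the gene's mean over the 6 libraries, with red for higher and blue for lower. The columns of ccl5 replicates 1 and 3 look alike, as do those of control replicates 1 and 2 and those of ccl5 replicate 2 and control replicate 3.

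Genes for processing and release numbered 27, with 22 tested, 0 called, 9 higher and 13 lower (median -0.15). With Y-linked libraries only, 4 were higher and 18 lower (median -0.51), and with primary transplants only, 16 of 21 were higher and 5 lower (median 0.33), so the direction of this list turned between the subsets. Casp1, the protease that activates IL-1β, measured 70.5, 40.4 and 79.8 CPM with ccl5, against 60.6, 70.4 and 45.5 CPM in controls (fold change 0.11 in log2, SE 0.31, edgeR adjusted p = 0.882). Nlrp3, the inflammasome sensor, measured 26.4, 13.5 and 26.4 CPM with ccl5, against 48.9, 50.1 and 14.1 CPM in controls, and Pycard, its adaptor, 185, 123 and 186 CPM with ccl5, against 231, 210.4 and 129 CPM in controls. Both were lowest in ccl5 replicate 2 and control replicate 3. Adam17, the protease that sheds TNF, measured 272, 127 and 296 CPM with ccl5, against 195, 189 and 123 CPM in controls, and Furin, which cleaves the TGF-β1 precursor, 377, 161 and 309 CPM with ccl5, against 284, 257 and 146 CPM in controls. The genes of this list with the smallest p were Itgav, an integrin chain that binds latent TGF-β, at 142, 44.7 and 139 CPM with ccl5, against 42.4 to 46.5 CPM in controls, and Ltbp2, at 0.855, 0.305 and 0.819 CPM with ccl5, against 5.39, 6.08 and 0.605 CPM in controls. Itgav was high in ccl5 replicates 1 and 3 and Ltbp2 in control replicates 1 and 2.

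All 31 adaptor and kinase genes were tested, with 0 called, 26 higher and 5 lower (median 0.32). In 5 of them all ccl5 libraries were above all control libraries, and in 0 all were below, against 8.27% and 7.49% of all tested genes. With Y-linked libraries only, 17 were higher and 14 lower (median 0.08), and with primary transplants only, 20 were higher and 11 lower (median 0.12). Stat3 measured 177, 156 and 163 CPM with ccl5, against 85.5, 87.8 and 139.5 CPM in controls (fold change 0.66 in log2, SE 0.23, edgeR adjusted p = 0.365), and Jak2, a kinase upstream of it, 143, 75.1 and 164 CPM with ccl5, against 66 to 77.4 CPM in controls. For Stat3 the 2 low libraries were control replicates 1 and 2, which had the most Osm and Lif.

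Cytokine mRNAs are short-lived through AU-rich elements in their 3′ ends, which are bound by the decay factors Zfp36, Zfp36l1 and Zfp36l2. In the longest annotated 3′ end of each gene (GENCODE M21), Tnf held 8 copies of ATTTA in 764 bases, and 0.297% of 2358 3′ ends of like length (within 20%) held as many. Il1b held 4, Osm 6, Il10 6, Il6 10, Il1a 3 and Tgfb1 1, and Il1rn held 0 in 1864 bases. The share of 3′ ends of like length with as many was 1.97% for Il10, 2.54% for Il6, 3.22% for Il1b and 4.94% for Osm. It was 16.7% for Tgfb1 and 34.5% for Il1a, whose copies were thus less unusual for their length. The longer form TTATTTATT occurred in Tnf, 5 times with overlaps, and in 0 of the other 7 genes, against 3.94% of 3′ ends of the length of that of Tnf. The densest 30 bases of the Tnf and Il1b elements are shown with ATTTA in capitals, for the gene with the most of them per base and for the IL-1 gene with the most.
Tnf, chr17:35199679-35199708, minus strand: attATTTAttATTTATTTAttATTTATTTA
Il1b, chr2:129364808-129364837, minus strand: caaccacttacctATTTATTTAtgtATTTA
Tnf and Il1rn, the genes with the most and the fewest copies per base, were both highest in control replicates 1 and 2. Elsewhere they differed, with Tnf at 2.82 to 4.07 CPM. Il1rn measured 54.0 and 73.4 CPM in ccl5 replicates 1 and 3, against 31.2 CPM in ccl5 replicate 2 and 29.2 CPM in control replicate 3. The part of mRNA decay in these levels was not tested.

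The list of transcription and mRNA decay genes had 27 members, all tested, with 0 called, 23 higher and 4 lower (median 0.45). With primary transplants only the split was again 23 to 4, but with Y-linked libraries only 12 were higher and 15 lower (median -0.09). Zfp36l2 measured 328, 119 and 319 CPM with ccl5, against 79.7, 80.9 and 109 CPM in controls (fold change 1.51 in log2, SE 0.42, edgeR adjusted p = 0.365), without overlap between the groups. Zfp36 itself, which encodes tristetraprolin, measured 204, 46.4 and 186 CPM with ccl5, against 91.3, 104 and 48.6 CPM in controls. Jun, a subunit of AP-1, measured 175, 24.2 and 165 CPM with ccl5, against 28, 27.0 and 22.4 CPM in controls, which is the layout of Il1a.

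Genes induced by TNF and IL-1 were 30, of which 24 were tested and 0 called, with 12 higher and 12 lower (median -0.04). With Y-linked libraries only, 8 were higher and 16 lower (median -0.34), and with primary transplants only, 16 were higher and 8 lower (median 0.30). Individual targets followed different pairs of libraries. Nfkbia, the NF-kB inhibitor that NF-kB induces, measured 42.1, 68.0 and 46.0 CPM with ccl5, against 263, 265 and 71.8 CPM in controls (fold change -1.94 in log2, SE 0.53, edgeR adjusted p = 0.365). Ccl2, a monocyte chemokine, and Cxcl2, a neutrophil chemokine, also had control replicates 1 and 2 as high libraries, with Cxcl2 at 1, 6 and 10 counts with ccl5, against 37, 40 and 3 counts in controls and Ccl2 at a log2 fold change of -2.53 (SE 0.72). These are the high libraries of Tnf. Tnfaip3, another NF-kB feedback gene, instead measured 97.6, 9.41 and 103 CPM with ccl5, against 22.4, 21.1 and 10.9 CPM in controls, and so was highest in ccl5 replicates 1 and 3. Icam1, an adhesion gene, measured 35.8, 29.7 and 29.0 CPM with ccl5, against 17.5, 17.2 and 30 CPM in controls, lowest where Tnf was highest.

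The 15 STAT3 targets were all tested, with 0 called, 12 higher and 3 lower (median 0.29). With Y-linked libraries only, 8 were higher and 7 lower (median 0.02), and with primary transplants only, 12 were higher and 3 lower (median 0.39). Socs3, the feedback inhibitor of gp130 signalling, measured 61, 17.4 and 53.9 CPM with ccl5, against 14.5, 13.5 and 17.3 CPM in controls (fold change 1.55 in log2, SE 0.47, edgeR adjusted p = 0.365). It was not higher in control replicates 1 and 2, where Osm and Lif were highest. Nfil3, a transcription factor, measured 46.7, 31.0 and 43.9 CPM with ccl5, against 26.0, 24.7 and 28.8 CPM in controls. For both genes the groups came closest between ccl5 replicate 2 and control replicate 3.

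Of 19 TGF-β targets 16 were tested and 0 called, with 10 higher and 6 lower (median 0.70). Smad7, the inhibitory SMAD, measured 13.7, 12.5 and 13.5 CPM with ccl5, against 5.71, 6.45 and 12.8 CPM in controls (fold change 0.67 in log2, SE 0.36, edgeR adjusted p = 0.432). The SMAD co-repressor genes Ski and Skil measured 87.2, 44.5 and 75.3 CPM and 56.9, 35.4 and 60.6 CPM with ccl5, against 34.7, 29.1 and 37.7 CPM and 24.5, 26.7 and 37.4 CPM in controls. Id2 measured 569, 48.4 and 689.8 CPM with ccl5, against 42.0, 50.1 and 52.0 CPM in controls (fold change 3.18 in log2, SE 0.92, edgeR adjusted p = 0.365), so its difference lay in ccl5 replicates 1 and 3. With Y-linked libraries only, 8 of the 16 targets were higher and 8 lower (median -0.13), and with primary transplants only, 12 of 15 were higher and 3 lower (median 1.085).

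Relatives of the cytokines were sparse, with 38 genes in the table, 7 of them without a count and 11 tested, of which 0 were called (4 higher, 7 lower, median -0.19). Il1f9, which encodes IL-36γ of the interleukin 1 family, measured 26.4, 40.1 and 25.7 CPM with ccl5, against 58.8, 61.9 and 42.5 CPM in controls (fold change -0.82 in log2, SE 0.26, edgeR adjusted p = 0.365), without overlap between the groups but with ccl5 replicate 2 and control replicate 3 closest. Il18 measured 4.56, 1.40 and 7.37 CPM with ccl5, against 4.38, 5.06 and 1.16 CPM in controls. Tnfsf12, which encodes TWEAK, measured 26.7, 2.44 and 28.8 CPM with ccl5, against 3.68, 3.63 and 1.93 CPM in controls.

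The genes most like each cytokine gene were found among 10373 genes by the root mean square difference of log2 CPM over the 6 libraries, each gene centred on its mean. Nearest to Tnf was Hal, histidine ammonia-lyase, at a difference of 0.314, then Lama5 (0.352) and Aqp9 (0.373). Nearest to Osm was Frmd6 (0.074), then Il12a (0.126), a chain of interleukin 12, at 5.48, 3.54 and 4.55 CPM with ccl5, against 20.7, 23.0 and 3.74 CPM in controls, then Arhgef7 (0.136). Nearest to Il1rn were Pgk1 (0.127), Zfp575 (0.138) and Ccr1, a receptor for CCL5 (0.144), which measured 153, 74.1 and 169 CPM with ccl5, against 249, 257 and 81.6 CPM in controls. Nearest to Il1a were H2-K2 (0.101), a class I gene with near-identical relatives whose counts are uncertain, Gde1 (0.131) and Pkp4 (0.146). Nearest to Il1b were Fgl2 (0.197), F13a1 (0.213) and Gas7 (0.225), and nearest to Tgfb1 were Dag1 (0.044), Fbxl17 (0.070) and Inpp5d (0.073), the gene of the phosphatase SHIP1. Among the cytokine genes themselves, Osm and Il1rn were closest (0.54) and Tnf and Il1b farthest apart (3.45).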

How the data were processed

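Per the labels' protocols, polyadenylated RNA of 6 libraries was read from 1 end over 100 bases. The authors deposited raw counts per gene made with featureCounts 1.5.1 from primary alignments on the UCSC mm10 annotation, per the file headers, which set no strand option. Bowtie, TopHat, Trimmomatic and DESeq2 are named in the submitters' processing notes, without versions or settings. The gene lengths deposited by the authors, in bases and with no other unit, gave TPM.

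Counts were scaled by TMM and filtered with filterByExpr (minimum count 10), which left 12174 of 18580 genes with a count. Groups were compared with edgeR 4.0.16 (R 4.3.3), quasi-likelihood, two-sided, Benjamini-Hochberg adjusted over all tested genes, threshold 0.05. The script was tested on simulated data. SE is the absolute log2 fold change over the square root of F. Alternatives were DESeq2 1.42.0, its size factors, no filter, a stricter filter, a threshold of 0.1, each library left out and both subsets of libraries.

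The members and lists were chosen with earlier results of these data known. Named were all 8 genes, a fixed set of pathway genes, the 2 smallest p per list, neighbours of the cytokine genes and the 3 genes of most alike pattern. Depth was 13421100 to 18445095 counts, at which 3 counts are 0.160 to 0.273 CPM. Intervals cover counting error only. The labels number the control libraries but not the ccl5 libraries as replicates, so no block was fitted. The primary transplant subset is also the set of libraries with the stem neo10.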

Additional observations from a re-analysis of the deposited data

How the results depend on the processing

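The count of 0 genes called held with DESeq2 size factors, no filter, a stricter filter and a threshold of 0.1. Both subsets of libraries leave 1 group with a single library, so no count of calls is read from them. DESeq2's Wald test called 199 of 12164 genes, and 5 of the 162 tested in the pathway lists. Leaving out 1 library gave calls only without ccl5 replicate 2 or control replicate 3. Without ccl5 replicate 2, 3299 of 12581 genes were called, and 52 of 163 in the pathway lists. Without control replicate 3, 237 of 12579 genes were called, and 8 of 163 in the pathway lists. The log2 fold change of Il1b lay between 0.059 and 3.33 when 1 library was left out. With primary transplants only it moved to -0.31 for Tnf, 0.22 for Osm and 0.82 for Il1rn, and with Y-linked libraries only to 0.094 for Il1a and 0.36 for Tgfb1. The cause was not tested. Of 71 refitted fold changes of cytokine genes 65 moved by less than the spread between replicates, and 3 turned their sign, all among primary transplants. That spread is wide because each group holds unlike libraries, and several refits use the same libraries, so this count does not show stability. Il1b, at 0.57 with all libraries and -0.76 among primary transplants, counted as within the spread. Il1a could not be fitted under the stricter filter. No paired analysis was possible because the labels number the controls but give the ccl5 libraries no replicate numbers to match. Low counts limit Il1b in control replicates 1 and 2, Il1a outside ccl5 replicates 1 and 3, and Il6 and Il10 everywhere.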
